A study of Mus musculus with 3 samples.

Results

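The cytosolic ribosomal protein genes encode the protein part of the ribosome that translates messenger RNA outside the mitochondria. A gene was taken where a probe set carried its symbol alone and the symbol was that of a large-subunit (Rpl) or small-subunit (Rps) protein, or Rpsa, Rplp0, Rplp1, Rplp2 or Fau, without ribosomal S6 kinases or pseudogenes. The symbol decided membership, no signal did, and 50 of the 18194 genes with such a probe set were found, 26 of the large and 24 of the small subunit. Each gene is represented by its probe set with the highest mean signal over the arrays. A further 28 symbols of the kind, Rplp1 among them, occur only on probe sets that also list another gene, so the list covers 50 of 78 such symbols. In all, 110 shared probe sets of that sort exist, and they are described as a group, without gene names.

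Ribosomal proteins are made in near-equal numbers, 1 copy of most per ribosome, and imported into the nucleolus, where they join ribosomal RNA. Their messenger RNAs carry a run of pyrimidines at the 5' end, the TOP element, through which mTORC1 and the protein LARP1 control their translation, and their transcription follows growth signals. In growing lymphocytes and lymphomas they are among the most abundant messenger RNAs, and several members, such as Rpl5 and Rpl11 in the 5S particle, bind Mdm2 when they are not in a ribosome.

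The arrays compared 3 kinds of cells of the mouse T-lymphoma line WR19L, of BALB/c origin, with 1 array each: parental cells, flippase-deficient DKO cells that stably express human ATP11A, and DKO cells that stably express its Q84E mutant. ATP11A is a flippase, an enzyme that carries phospholipids across the plasma membrane to its inner leaflet. All cells were grown untreated in RPMI1640 medium with serum, and the label of the parental sample also carries the code W3, which it does not explain. Transgene-free DKO cells, which the design names, were not analysed here. In a ratio over parental cells the knockout, the transgene and the derivation of the line therefore cannot be told apart. In the ratio of Q84E over wild-type ATP11A, the mutation, the transgene level and the derivation of each line cannot be told apart. How the transgene was driven and whether each line is 1 clone is not given in the sources used here. With 1 array per group no value has a replicate, so there is neither a test nor a p-value. Precision is limited by the number of arrays.

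The deposited values are MAS5 signals, on a linear scale, scaled by the authors to the same trimmed mean on each array. A level under the median of its array, which was 50.3 on the parental, 50.5 on the wild-type ATP11A and 55.5 on the Q84E array, was treated as under the floor. Of the T cell markers listed, 8 of 11 lay above the floor on each array, with Cd3d at 6898, 4272 and 6976, while Cd3e, Cd4 and Cd5 lay under it. Of 5 B cell, 6 myeloid, 3 erythroid and 5 fibroblast markers, 3, 3, 1 and 1 passed the floor on some array, none of them above a signal of 343. The summed signal of the T cell markers was 43045 on the parental, 34889 on the wild-type and 40872 on the Q84E array, and its part in the values below was not tested.

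The RefSeq promoter table for build GRCm38.p6 held 44 of the 50 genes, with 52 start sites, and the start of the transcript showed a feature that the choice of genes did not use. A C at the annotated start followed by at least 4 pyrimidines, the TOP start, was found at 9 of the 52 start sites, 17.3%, against 2.51% of all 32851 start sites in the table. The 9 are printed because they are the members in which the annotated start carries the element, from 15 bases before to 15 bases after the start, with the longest pyrimidine run that reaches the 10 bases on either side of the start in capitals.
Fau (chr19:6057932-6057961, + strand): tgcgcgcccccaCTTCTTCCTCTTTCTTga
Rpl14 (chr9:120571502-120571531, + strand): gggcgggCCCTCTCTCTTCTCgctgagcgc
Rpl35 (chr2:39005117-39005146, - strand): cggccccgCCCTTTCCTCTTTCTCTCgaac
Rpl38 (chr11:114668565-114668594, + strand): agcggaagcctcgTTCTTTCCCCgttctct
Rplp2 (chr7:141447636-141447665, + strand): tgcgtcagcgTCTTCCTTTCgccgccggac
Rps6 (chr4:86857353-86857382, - strand): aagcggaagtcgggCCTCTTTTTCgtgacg
Rps10 (chr17:27635230-27635259, - strand): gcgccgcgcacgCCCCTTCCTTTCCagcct
Rps18 (chr17:33955651-33955680, - strand): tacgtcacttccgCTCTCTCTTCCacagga
Rps27 (chr3:90213634-90213663, - strand): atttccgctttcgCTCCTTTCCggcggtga
Of these, Rps27 and Rpl14 had log2 ratios of Q84E over wild-type ATP11A of -0.27 and -0.22, the lowest after that of Rpl7l1. Rpl39, the member with the highest ratio at 0.51, had no TOP start at the annotated base, but a run of 8 pyrimidines began 6 bases after it. For contrast, the start of Rpl7l1, the member with the lowest ratio of Q84E over wild-type ATP11A, held a longest run of 2 pyrimidines.
Rpl7l1 (chr17:46782642-46782671, - strand): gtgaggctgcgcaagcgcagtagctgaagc

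A run of at least 8 pyrimidines at the same place occurred at 21 of the 52 start sites, 40.4%, against 13.7% of all. Annotated starts can lie some bases from the true one, so a missing TOP start says only that these letters are not at the annotated base. Of the motifs searched on both strands from 250 bases before to 50 after the start, CCGGAAG of the ETS family stood at 21 of 52 start sites, 40.4%, against 8.86% of all. AAGATGG, the core of YY1 sites, stood at 9 of 52, 17.3%, against 6.34%, GGGCGG of SP1 at 28 of 52, 53.8%, against 35.7%, and TATAAA of the TATA box at 6 of 52, 11.5%, against 13.6%. These motifs do not contain each other, and a match is a description, not a site. The 2 longer stretches, from 150 bases before to 15 after the start, belong to the TOP-start member with the highest mean signal in each subunit, and their capitals mark the motifs found and the pyrimidine run.
Rpl38 (chr11:114668430-114668594, + strand): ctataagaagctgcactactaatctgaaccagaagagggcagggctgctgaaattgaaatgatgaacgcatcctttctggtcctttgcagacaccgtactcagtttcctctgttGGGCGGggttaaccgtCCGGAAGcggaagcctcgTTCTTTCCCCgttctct
Rps10 (chr17:27635230-27635394, - strand): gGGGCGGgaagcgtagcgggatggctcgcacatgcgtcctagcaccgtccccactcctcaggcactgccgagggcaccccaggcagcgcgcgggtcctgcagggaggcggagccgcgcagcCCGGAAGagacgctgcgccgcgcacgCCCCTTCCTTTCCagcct
In Rpl38 the ETS motif began 20 bases before the start, and in Rps10 29 bases before it. The 9 compared members with a TOP start had a median log2 ratio of Q84E over wild-type ATP11A of 0.12, from -0.27 to 0.28, and the 32 without one a median of 0.088, from -0.28 to 0.51, so the ranges overlapped.

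Ribosomal protein signals were nearly the same on the 3 arrays. Of the 50 genes, 46 lay above the floor on all arrays and 4 lay under it on all. For 30 of the 46 the highest of the 3 signals was less than 1.1 times the lowest, against 20.3% of the 11617 genes compared, and for 41 it was less than 1.2 times, against 48.9% of genes. Those genes were not matched to the members for signal, here or in the shares of all genes given below. For Q84E over wild-type ATP11A, the probe set error of a log2 ratio, described below, was 0.065 at 20000 or more. It was 0.32 for the dimmest genes. Whether members varied less than other genes of equal signal was not tested with these counts. The mean signal was at least 20000 for 35 of the 46, from 22218 for Rps15 to 41601 for Rps29. A further 2 lay between 10000 and 20000, 6 between 1000 and 10000, and 3 below 1000. Signals of different probe sets are not on a common scale of abundance, so this order is one of probe sets and not of messenger RNA.

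**Figure D1:**
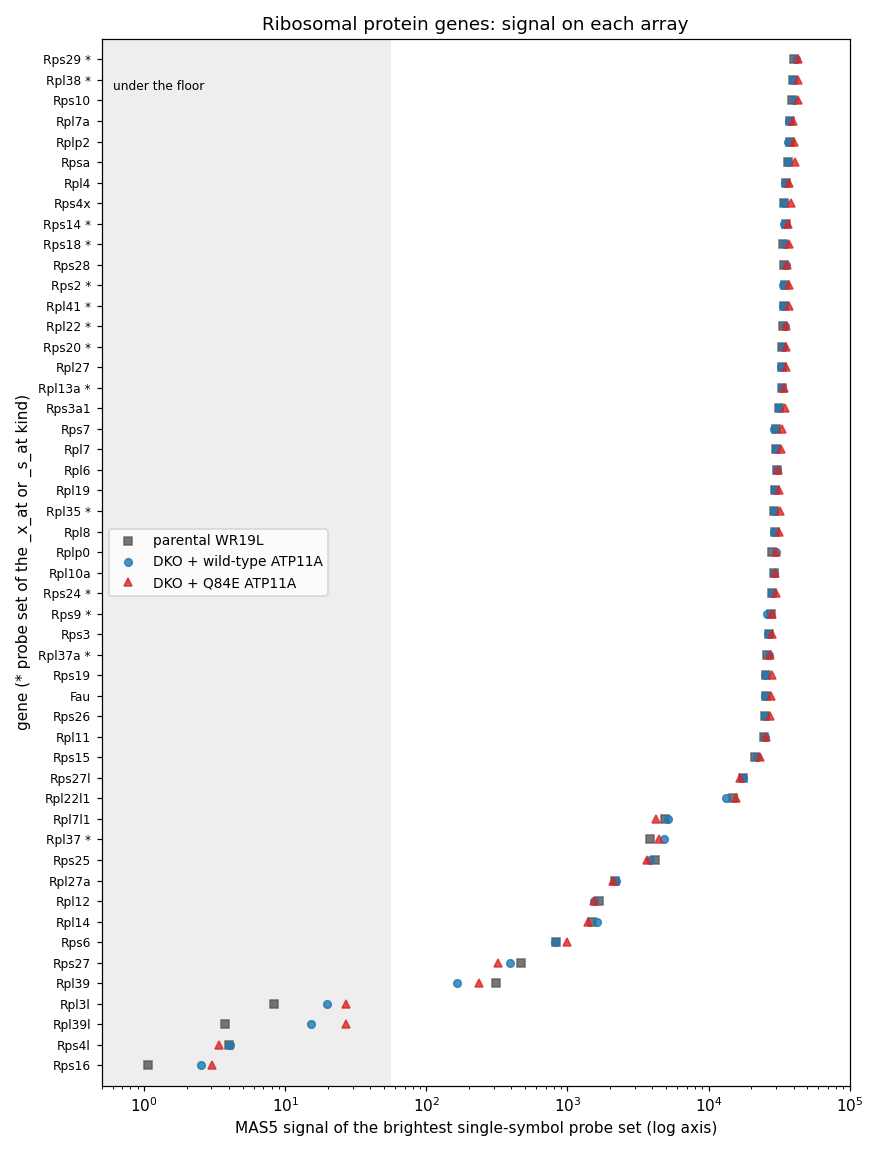
Deposited MAS5 signal of the brightest single-symbol probe set of each of the 50 ribosomal protein genes (log axis) on the parental (squares), wild-type ATP11A (circles) and Q84E (triangles) array, ordered by mean signal, with the range under the Q84E floor of 55.5 shaded. The 35 genes at the top sit close together above 20000 on all arrays, and 4 genes lie in the shaded range.

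For Q84E over wild-type ATP11A, which set the DKO line with the mutant protein against the DKO line with the normal one, 38 of the 46 members had a higher signal with Q84E. Of all genes compared, 58.1% did. The median log2 ratio of the members was 0.094, against 0.046 over all genes. Rpl39 and Rps6, 2 members, were higher by 1.2-fold or more, as were 20.4% of all genes, and Rpl7l1 and Rps27, 2 members, were lower by as much, as were 10.1%. No member reached 1.5-fold, which 5.84% of genes passed upward and 1.97% downward, or 2-fold, which 1.05% and 0.318% passed. Members read by _x_at or _s_at probe sets, 14 of the 46, had a median of 0.095, and the 32 read by other kinds one of 0.093. The error of a log2 ratio, taken per probe set from the root mean square difference within pairs of probe sets for the same gene, was 0.065 for genes with both probe sets at a mean signal of at least 20000, and 0.099 for those above the 90th percentile of signal. That error is one of single genes and leaves out differences between cultures.

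The direction of this small difference depended on the scaling between arrays. Centred on genes at or above the 90th percentile of signal, the members' median was 0.12, with 39 of 46 above 0, against 62.6% of all genes. When the arrays were scaled to a common median instead, all genes moved by the same amount, their median went from 0.046 to -0.090, and the members' median became -0.043. The median of each array is its floor, at 50.3, 50.5 and 55.5, so this scaling matched the arrays at floor-level signal. Under the deposited scaling, probe sets outside the list had a median of 0.085 below 1000 and of -0.025 between 1000 and 10000. With the common median the share of all genes above 0 went from 58.1% to 33.2%, and 9 of the 46 members stayed above 0: Rpl39, Rps6, Rpl22l1, Rps7, Rpsa, Rps4x, Rps19, Rps2 and Fau. With quantile normalization the members' median was 0.0078, with 24 of 46 above 0, against 47.9% of all genes. That method gives equal signals to equal ranks. At 30000 and above, 29 member and 44 shared ribosomal protein probe sets stood beside 36 others. A difference common to ribosomal protein genes at that end would thus be largely removed by the method, so this value cannot show whether there was one. Of the 46 members, 30 lay above the median of all genes under the deposited scaling, a count that a common median cannot change, and 24 with quantile normalization.

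Of the 8 members with the highest ratio of Q84E over wild-type, 6 belong to the small subunit, as do 22 of all 46 compared members. Rps7, a protein of the small subunit that also binds Mdm2, had signals of 30104 in parental, 29246 in wild-type and 33348 in Q84E cells, a log2 ratio of Q84E over wild-type of 0.19. Rpsa, the ribosomal protein also known as the laminin receptor precursor, had 36500.4, 36278 and 41166, a ratio of 0.18. Rps4x, which is encoded on the X chromosome, had 34358, 34008 and 38326, a ratio of 0.17. In each of these 3 genes the Q84E array was the high one and the parental and wild-type arrays lay within 1.03-fold of each other. Rps19, the gene most often mutated in Diamond-Blackfan anaemia, had 25367, 25173 and 28179, and Rps2 had 34643, 33526 and 37213. Their log2 ratios of Q84E over wild-type were 0.16 and 0.15. With a common median the 5 genes kept ratios above 0, from 0.014 for Rps2 to 0.052 for Rps7. The second probe set of Rps7 gave a ratio of 0.0015, so its value was not shared by both. Among the 35 members with a mean signal of at least 20000, these ratios had an SD over genes of 0.050. The error at that signal was 0.065, so the differences between these genes were no larger than those between probe sets of a gene.

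By subunit, the 22 compared small-subunit genes had a median log2 ratio of Q84E over wild-type of 0.098, with 19 above 0, and the 24 large-subunit genes one of 0.061, with 19 above 0. The interquartile range was 0.080 to 0.15 in the small and 0.014 to 0.12 in the large subunit, so the ranges overlapped. With a common median both subunits had medians below 0, -0.039 and -0.075, and with quantile normalization they had 0.024 and -0.0088. Among the large-subunit genes Rpl41, which encodes one of the shortest proteins known, had signals of 34289, 33660.0 and 36992, and Rpl38, known for its part in the translation of Hox messenger RNAs, had 39771, 39774 and 43176. Both were highest with Q84E, and both ratios over wild-type lay below 0 with a common median. Rpl10a, at 28851, 28914 and 29516, and Rpl6, at 30778, 30402.0 and 30873, varied less than 1.03-fold across the arrays.

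The stalk of the large subunit, which recruits translation factors, had no common direction. Rplp0, the scaffold of the stalk, had signals of 28247 in parental, 30031 in wild-type and 29939.0 in Q84E cells, so it was lowest in parental cells and level between the DKO lines, with a log2 ratio of -0.0044. Rplp2, which binds to that scaffold, had 37663.0, 36720.2 and 39972, and was highest with Q84E. Rpl12, at the base of the stalk, had 1676, 1535 and 1548 and was highest in parental cells. Of the 5S particle only Rpl11 had a probe set of its own, with signals of 24875, 25107 and 25683 and a ratio of 0.033. Fau, which encodes a ribosomal protein fused to a ubiquitin-like protein, had 25319, 25114 and 27799 and a ratio of 0.15.

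The members past 1.2-fold all had a mean signal under 20000. Rpl39, a short protein that lines the exit tunnel, had signals of 309 in parental, 165.4 in wild-type and 235 in Q84E cells. The wild-type array was the lowest of the 3, with the parental array 1.87-fold and the Q84E array 1.42-fold above it, and this single probe set lies in a range where the error of a log2 ratio was 0.32 to 0.34. Rps6, the substrate of the ribosomal S6 kinases, had 825, 812 and 987, a log2 ratio of Q84E over wild-type of 0.28, and its other single-symbol probe set passed the floor only on the parental array. Rps27, a zinc-binding protein of the small subunit, had 466, 389.6 and 324, the parental array highest and the Q84E array lowest, with a log2 ratio of Q84E over parental of -0.52. Shared probe sets also carry the symbols Rpl39 and Rps27, so these values describe the single-symbol probe set rather than all transcripts of the gene.

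Rpl7l1 is a paralog of Rpl7 that acts in the assembly of the large subunit in the nucleolus and is not a standard part of the finished ribosome. Its signals were 4904.5 in parental, 5189 in wild-type and 4271 in Q84E cells, and the wild-type level was 1.22-fold that of Q84E. The 3 probe sets of the gene gave log2 ratios of -0.28, -0.21 and -0.28, all below 0, and the ratio stayed below 0 under the 3 other scalings. Rpl7 itself had 29995, 30124 and 32367, highest with Q84E.

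Rpl22, which is needed for the development of alpha-beta T cells and is lost in some T cell leukaemias, had 33406, 34518 and 35087, a log2 ratio of Q84E over wild-type of 0.024. Other probe sets of Rpl22 gave 0.060 and, at the lower signals of 1222, 1026 and 1304, 0.35. The paralog Rpl22l1 had 14876, 13322 and 15747, a ratio of 0.24 and a ratio of wild-type over parental of -0.16, and its lowest signal was on the wild-type array. With a common median the ratio of Rpl22l1 for Q84E over wild-type was 0.10. Rps27l, the paralog of Rps27 and a known target of p53, had 17486, 17619 and 16610, a ratio of -0.085, with its other probe sets at -0.17 and 0.038.

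The members under the floor were Rpl3l, Rpl39l, Rps4l and Rps16. Rpl3l, the heart and skeletal muscle paralog of Rpl3, had signals of 8.26, 19.6 and 26.8, and Rpl39l, a paralog of Rpl39 known from testis, had 3.75, 15.2 and 27.1. Rps4l, a paralog of Rps4x, had 4.01, 4.04 and 3.39. Rps16, a standard protein of the small subunit, had 1.07, 2.52 and 3.04 by its only single-symbol probe set, although further probe sets that list its symbol with others exist. No ratio is given for these 4, since all their levels lay under the floor.

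Several members had more than 1 probe set, which shows how far a ratio depends on the probe set. Of the 20 members with at least 2 probe sets above the floor on all arrays, 8 had all ratios of Q84E over wild-type on the same side of 0, and the median distance between the highest and the lowest ratio of a gene was 0.23. Rps14 and Rps15 were the closest, with 2 probe sets each between 0.098 and 0.10 and between 0.087 and 0.089. Rpl27 was apart: its brightest probe set had 33291, 32725 and 35341, a ratio of 0.11, while the other 2 had 13279, 16142 and 12654, and 11780, 12693 and 11324, both highest on the wild-type array. Rps24 gave 0.092 by its brightest probe set and -0.34 by the fourth. Over the 50 other probe sets above the floor, 28 had a ratio above 0 and the median was 0.022. Of these, the 28 of the _x_at and _s_at kind, which can share sequence with related genes, had a median of 0.022, and the 22 of other kinds 0.0066.

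**Figure D2:**
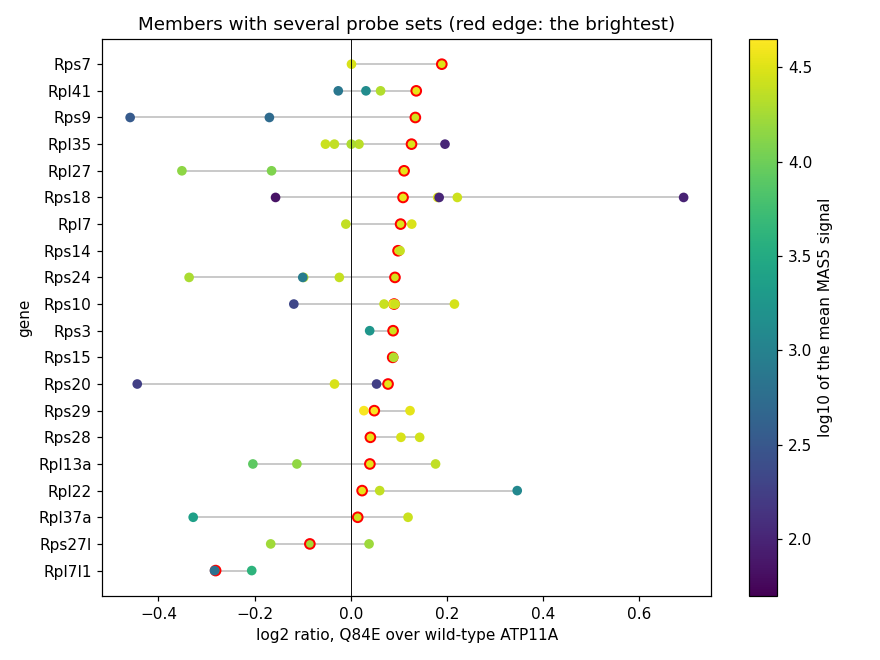
Log2 ratio of Q84E over wild-type ATP11A for each probe set above the floor of the 20 members that have at least 2, with the colour giving log10 of the mean MAS5 signal and a red edge the brightest probe set. Brightest probe sets lie above 0 in 18 of the 20 genes, and dimmer ones spread to both sides, from -0.46 in Rps9 to 0.69 in Rps18.

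Member probe sets with a mean signal of at least 20000 had medians above 0, and the bands below that signal had medians below 0 without a further trend. All 29 member probe sets with a mean signal of at least 30000 were higher with Q84E than with wild-type ATP11A, with a median log2 ratio of 0.11. Between 20000 and 30000 it was 24 of 31, with a median of 0.087, and between 10000 and 20000 it was 3 of 9, with a median of -0.11. Between 1000 and 10000 it was 4 of 12, with a median of -0.095, and below 1000 it was 6 of 15, with a median of -0.10. For the 35 genes whose brightest probe set reached 20000 the median was 0.098 with 34 above 0, and for the 11 dimmer ones it was -0.072 with 4 above 0. With a common median these medians were -0.039 and -0.21, since that scaling moves every gene by the same amount. With quantile normalization they were 0.012 and -0.045.

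Probe sets outside the list in the same range of signal showed part of the same pattern. At 30000 and above, the 36 other probe sets had a median log2 ratio of Q84E over wild-type of 0.12, with 31 above 0. Of these, 14 carry no gene symbol and 7 carry several, so the genes they read are not settled here. Those with 1 symbol were 15 probe sets of 13 genes, and 11 of the 15 were above 0, among them Eef1a1 at 0.19, Tpt1 at 0.13, Pabpc1 at 0.12, Hspa8 at 0.12, Gapdh at 0.14 and Actb at 0.16 and 0.14, while Lgals1 at -0.27, Ncl at -0.11, Eif5a at -0.030 and 1 of the Npm1 probe sets at -0.0033 were below 0. Between 20000 and 30000, the 123 other probe sets had a median of 0.037, below the 0.087 of the members. By gene, the 73 genes outside the list with a mean signal of at least 20000 had a median of 0.028, with 49 above 0. The 35 such members had 0.098, with 34 above 0. Between 10000 and 20000 the 473 others had -0.025, and between 1000 and 10000 the 5944 others had -0.025, in both above the members. Below 1000 the 13352 others had a median of 0.085, on the other side of 0 from the -0.10 of the members. The highest signal of any probe set was 41467 on the parental, 41523 on the wild-type and 44663 on the Q84E array. Whether the upper end of the scanner's range shaped these ratios was not tested.

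**Figure D3:**
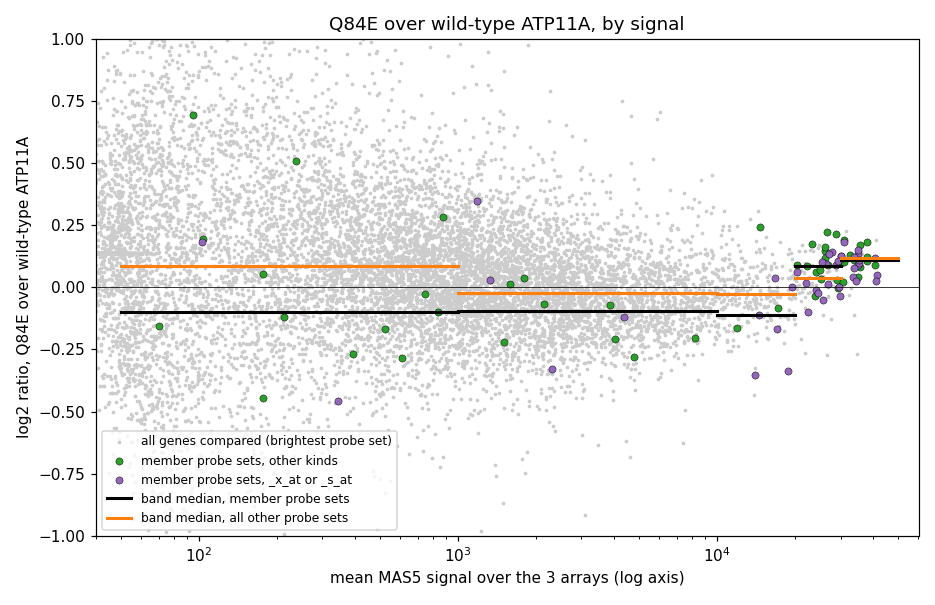
Log2 ratio of Q84E over wild-type ATP11A against the mean MAS5 signal of the 3 arrays (log axis), for all genes compared (grey, cut at -1 and 1) and for the member probe sets above the floor, purple for the _x_at and _s_at kinds and green for the rest. Lines are medians in bands of signal, black for member and orange for all other probe sets, and both lie near 0.11 and 0.12 at 30000 and above.

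The 110 shared probe sets, which the members' values do not use, gave a second reading. Of these, 106 lay above the floor on all arrays, 78 had a higher signal with Q84E than with wild-type ATP11A, and the median log2 ratio was 0.075. At a mean signal of 30000 and above 43 of 44 were higher, with a median of 0.11, and between 1000 and 10000 none of 7 was, with a median of -0.21. Between 10000 and 20000 the 7 shared probe sets had a median of 0.096, on the other side of 0 from the -0.11 of the members there. Of the 43 symbols they carry, 15 are members, so the readings are not of separate genes throughout.

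For wild-type ATP11A over parental cells, which asked how the DKO line with the normal protein differs from the line it came from, the members were level. Their median log2 ratio was -0.0039, with 22 of 46 above 0, against 54.2% of all genes, whose median was 0.0057. Rpl37, a zinc-finger protein of the large subunit, was the only member at least 1.2-fold higher, a size that 14.2% of genes passed, and Rpl39 the only one at least 1.2-fold lower, which 12.4% passed, and 1.5-fold lower, which 3.66% passed. None was 1.5-fold higher, which 3.5% of genes were, and none reached 2-fold, which 0.56% passed upward and 0.912% downward. Rpl37 had signals of 3871 in parental, 4825 in wild-type and 4443 in Q84E cells, by an _x_at probe set, and was lowest in parental cells. Among the 35 bright members the ratios ran from -0.098 for Rps9 to 0.088 for Rplp0, with an SD over genes of 0.036, against an error of 0.046 at that signal. The differences between these 35 genes were thus no larger than those between 2 probe sets of a gene.

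For Q84E over parental cells, 38 of 46 members were higher with Q84E, against 59.7% of all genes, and their median log2 ratio was 0.086, against 0.068. This comparison shares the Q84E array and the parental array with the 2 above and is not independent of them. No member was 1.2-fold higher, which 23.9% of genes were, and Rpl39 and Rps27 were at least 1.2-fold lower, which 12.6% of genes were. None reached 1.5-fold, which 7.38% of genes passed upward and 2.96% downward, or 2-fold, which 1.64% and 0.792% passed. With a common median the members' median was -0.057, with 7 above 0, against 37.0% of all genes, whose median was then -0.075. All 35 bright members were higher with Q84E under the deposited scaling, from 0.0044 for Rpl6 to 0.17 for Rpsa, and 5 of the 35 with a common median.

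By array, 36 of the 46 members had their highest signal on the Q84E array, as 42.9% of all genes did, 6 on the wild-type array, as 27.2% did, and 4 on the parental array, as 29.8% did. The lowest signal lay on the wild-type array for 22 members, against 30% of genes, on the parental array for 18, against 39.1%, and on the Q84E array for 6, against 30.9%. The 6 members lowest with Q84E, Rpl14, Rpl27a, Rpl7l1, Rps25, Rps27 and Rps27l, all had a mean signal under 20000.

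Genes that act around the ribosome were read for comparison. The 19 compared translation factors and other genes known for TOP messenger RNAs had a median log2 ratio of Q84E over wild-type of 0.0084. Of these, 10 were above 0, as were 58.1% of all genes compared. None was past 1.2-fold, which 20.4% of all genes passed upward and 10.1% downward. The 3 highest were Eef1a1, elongation factor 1 alpha, at 0.19, Tpt1 at 0.13 and Pabpc1, the poly(A)-binding protein, at 0.12. The 3 lowest were Eef1d at -0.21, Vim at -0.16 and Eif2s3x at -0.056. With a common median 1 of the 19 was above 0, against 9 of the 46 ribosomal proteins and 33.2% of all genes. The 12 chaperones and assembly partners of ribosomal proteins had a median of -0.094, with 2 above 0, and the median stayed below 0 under the 3 other scalings. The highest were Pdcd2 at 0.077 and Ipo7 at 0.033. The lowest were Tsr2, the chaperone of Rps26, at -0.56, Heatr3, which escorts Rpl5 and Rpl11, at -0.37, and Grwd1, the chaperone of Rpl3, at -0.29. These 3 were the ones at least 1.2-fold lower, a size that 10.1% of all genes passed.

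**Figure D4:**
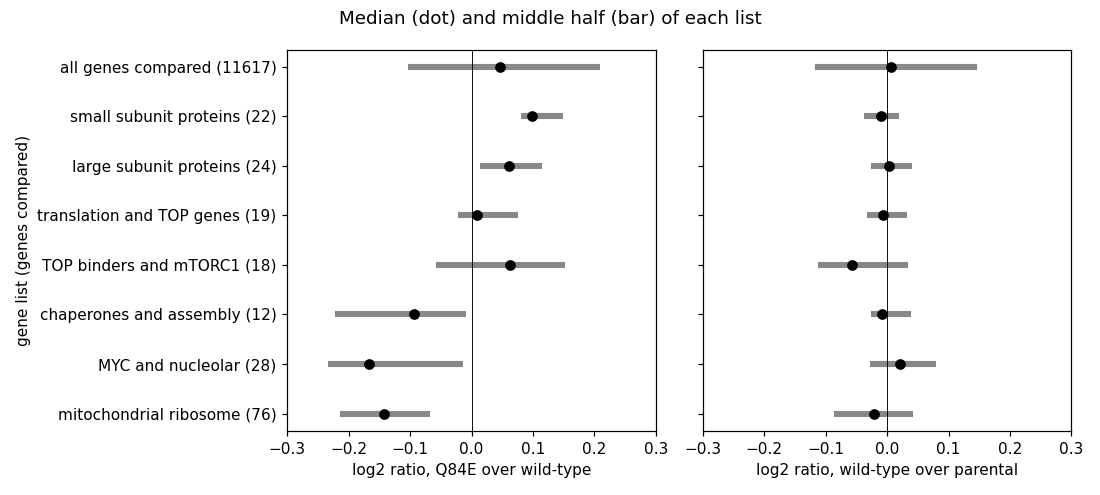
Median (dot) and interquartile range (bar) of the log2 ratio over the genes of each list, for Q84E over wild-type ATP11A (left) and wild-type ATP11A over parental cells (right), with the number of genes compared in brackets. On the left the small and large subunits lie at 0.098 and 0.061 and the mitochondrial ribosome and the MYC and nucleolar list at -0.14 and -0.17, and on the right the medians lie between -0.057 and 0.020.

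The 28 MYC and nucleolar ribosome biogenesis genes had a median log2 ratio of Q84E over wild-type of -0.17, with 24 below 0, and the 76 mitochondrial ribosomal protein genes one of -0.14, with 64 below 0. Of all genes compared, 58.1% lay above 0. Both list medians stayed below 0 under the 3 other scalings, at -0.14 to -0.30 and -0.12 to -0.28, while the cytosolic ribosomal proteins lay at -0.043 to 0.12. The lists differ in signal: most MYC, nucleolar and mitochondrial ribosomal genes lay between 1000 and 10000, and 35 of the 46 cytosolic ribosomal proteins at 20000 or more. Between 1000 and 10000 the cytosolic member probe sets had a median of -0.095, with 4 of 12 above 0. No test of the difference between the lists was possible with 1 array per group, and the part of signal level in it was not tested. In the list of TOP-binding and mTORC1 genes, 12 of 18 had a ratio above 0 and the median was 0.063, or -0.074 with a common median. It held Ddit4, an inhibitor of mTORC1, at 1.41, Sesn2, a further inhibitor, at 0.82, Mtor, the kinase, at 0.44, and at the lower end Tsc2 at -0.50, Larp4 at -0.27 and Tsc1 at -0.11. Larp1, which binds the TOP element, was at -0.053.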

How the data were processed

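Total RNA of 3 cell lines was hybridised to 1 Affymetrix mouse array each. Biotin-labelled cRNA was prepared by 3' in vitro transcription, per the labels' protocols. The authors deposited 1 linear intensity for each probe set, from MAS5 according to the submitters' processing notes, with no version among the sources used here. The trimmed mean, without 2% at each end, was 500.0 on every array, and this scaling was kept. Of 45101 probe sets, 34958 had exactly 1 gene symbol in the platform annotation, 932 several and 9211 none. All 50 members matched RefSeq genes of GRCm38.p6 by Entrez identifier. Start sites come from RefSeq, and the array files name no build.

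Log2 levels were taken with Python 3.11.15, pandas 2.3.3 and numpy 2.4.6. A gene was compared if it reached the 50th percentile of its array at least once, lower levels were set to that percentile, and 11617 genes passed. Ratios are differences of log2 levels, counted at 1.2, 1.5 and 2-fold. The steps were tested on simulated data. Other scalings (quantile, common median, centring on bright genes), choices of probe set and floors were tried. Members, lists and limits were chosen with earlier results of these data known. Named were members past 1.5-fold, the 8 highest and 8 lowest per comparison, stalk, 5S, ubiquitin-fusion and paralog genes, members under the floor, and the 3 highest and lowest of other lists, of which the MYC and mitochondrial lists are given as counts only. Rpl38, Rpl41, Rpl10a, Rpl6 and the probe set examples were chosen after their values were seen. Protein sequences were not used here.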

Additional observations from a re-analysis of the deposited data

How the results depend on the processing

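No paired analysis was possible because each group has 1 array and the labels give no replicate numbers, and leaving out a replicate was not possible for the same reason. The scaling mattered most for the median log2 ratio of the members: quantile normalization gave 0.0078 for Q84E over wild-type and 0.0035 for Q84E over parental, and a common median gave -0.043 and -0.057, which turned the sign. Centring on bright genes gave 0.12 and 0.11, with the sign kept. For wild-type over parental, no floor and no filter gave a median of 0.0011, also of the other sign, though both values are near 0. Counts past 1.2-fold are small, so a few genes move them. For Q84E over wild-type, 4 members were higher with the mean of all probe sets, with a floor at the 25th percentile, with no floor, or over all probe sets, and 1 with quantile normalization, a common median or the second brightest probe set. Of lower members, 8 were counted over all probe sets, 1 with quantile normalization or the mean of all probe sets, and 0 when centred on bright genes. For wild-type over parental, the higher count was 0 without _x_at and _s_at probe sets, 2 with the mean of all probe sets, the second brightest or the 25th percentile, 4 with no floor and 3 over all probe sets. The lower count was 2 with quantile normalization, 3 without _x_at and _s_at, and 5 with the mean or over all probe sets. For Q84E over parental, the higher count was 1 when centred on bright genes or with the mean, 2 with the 25th percentile and 3 with no floor, and the lower count was 4 with a common median or without _x_at and _s_at, 5 with the mean and 9 over all probe sets. The count over all probe sets was chosen after seeing the data, and it counts probe sets rather than genes. Lower floors admit members that are left out otherwise. Other causes were not tested. Of 72 values of 24 named members, 48 moved beyond the probe set error with a common median, 21 with the mean of all probe sets, 9 with quantile normalization and 0 when centred on bright genes or with another floor. A common median and centring each shift all genes of a comparison by 1 constant, so their counts follow from its size and not from single genes. Compared members lay above the floor on all arrays, so another floor could hardly move them. These counts are therefore no measure of how stable a gene is. Where the setting gave a value, 10 moved and 56 did not with the second brightest probe set. Without _x_at and _s_at probe sets 5 moved and 55 did not. A member with only 1 probe set keeps it as its second brightest and as its mean. Its value therefore could not move under either setting, and Rpl37, Rpl39 and Rps27 are such members. No member past 1.2-fold changed sign under any of the 8 other settings that gave it a value. Cultures were not replicated, and dim probe sets carry the larger error.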
